A study of Mus musculus with 12 samples.

Results

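Klf2, which encodes a repressor of fat cell formation, was the Krüppel-like factor with the largest difference between Fto-knockdown and control 3T3-L1 cells, and it was higher in the knockdown at every stage sampled. The family members described here are Klf2, Klf3, Klf4, Klf5, Klf6, Klf7, Klf9, Klf10, Klf13 and Klf15. They were chosen by symbol, mostly for reported pro- or anti-adipogenic roles, and with earlier results of these data known. Each had 1 row among the 55487 genes of the table, which lists 17 Klf symbols in all. Transcript abundance was measured by RNA-seq in 3T3-L1 cells, a mouse embryonic fibroblast line that turns into fat cells after hormonal induction. One line carried a control hairpin (shScram) and the other a hairpin against Fto, the gene for an RNA demethylase of N6-methyladenosine (shFTO). Both were sampled as preadipocytes (Pre), at mitotic clonal expansion (MCE, the round of cell division that follows induction) and after differentiation (Diff), with 2 libraries in each of the 6 groups and 12 in all. Rhein-treated cells of the same series are not described here.

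All 6 groups shared the 3T3-L1 background, and the labels give the cell type as fibroblast at every stage. Both lines were made with lentiviral hairpins in a vector that also carries TagRFP and a puromycin resistance gene, and were selected with puromycin. Which of the study's Fto hairpins the sequenced cells carried is not given in the sources used here, so an effect of the hairpin sequence and an effect of losing Fto cannot be told apart. Induction used IBMX, dexamethasone and insulin (MDI) for 3 days, followed by medium with insulin. Collection at days 0, 3 and 10 is given in the methods for rhein-treated cells and not separately for the hairpin lines. The labels of replicate 1 of shScram Diff disagree, because its title names the control hairpin and its treatment entry names the knockdown. It was grouped by its title, and its Fto level of 73.5 TPM lay with the other shScram libraries. Fto stood at 52.7 to 73.5 TPM in the shScram libraries and at 5.51 to 7.47 TPM in the shFTO libraries.

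Krüppel-like factors are transcription factors whose zinc fingers at the C terminus bind GC-rich and CACCC-type DNA, while their N-terminal parts recruit different activators or repressors. In adipogenesis they act as a relay around Pparg and the C/EBP genes. Klf4 and Klf5 are known as early activators, Klf9 and Klf15 as later ones, and Klf2, Klf3 and Klf7 as factors that hold preadipocytes back. Several members are also rapidly inducible: Klf9 and Klf15 respond to glucocorticoids, Klf10 to TGF-beta, and Klf2, Klf4 and Klf6 belong to the genes that react quickly to serum and stress.

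Values are in TPM, which gives the share of a library's transcripts that come from a gene after correction for its length. Such shares do not tell how deeply a library was sequenced, and the depth is therefore unknown. A library had 20853 to 24018 genes above 0. Differences are log2 fold changes of TPM + 1 from limma across the 15968 genes that reached 1 TPM in 2 or more libraries, given with their standard error (SE), and a gene is called at a Benjamini-Hochberg adjusted p under 0.05. All 10 members passed this filter, Klf15 only through its 4 Diff libraries. The labels do not say that the 2 libraries of a group came from separate cultures, so the p-values measure the spread between libraries, which may be technical. In these bulk samples, fewer cells that express a gene and less RNA per cell cannot be told apart. Within a group, log2 values correlated across genes at 0.990 to 0.993 in 5 groups and at 0.939 in shScram Pre.

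The 2 shScram Pre libraries differed in the members with GC-rich transcripts, and every knockdown comparison of preadipocytes rests on them. Replicate 1 was below replicate 2 by 1.48 on the log2(TPM + 1) scale for Klf2, by 1.29 for Klf4 and by 0.91 for Klf13, whose transcripts have a median GC content of 61.6%, 62.5% and 57.9%. For Klf3, Klf6 and Klf9, with 48.4% to 49.3% GC, replicate 1 was higher by 0.23 to 0.29. The median over tested genes with a GC value was 50.2%. The part of this gap in the results was not tested beyond refits that leave out a library or adjust for GC content. Those values stand beside the members they touch.

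**Figure D1:**
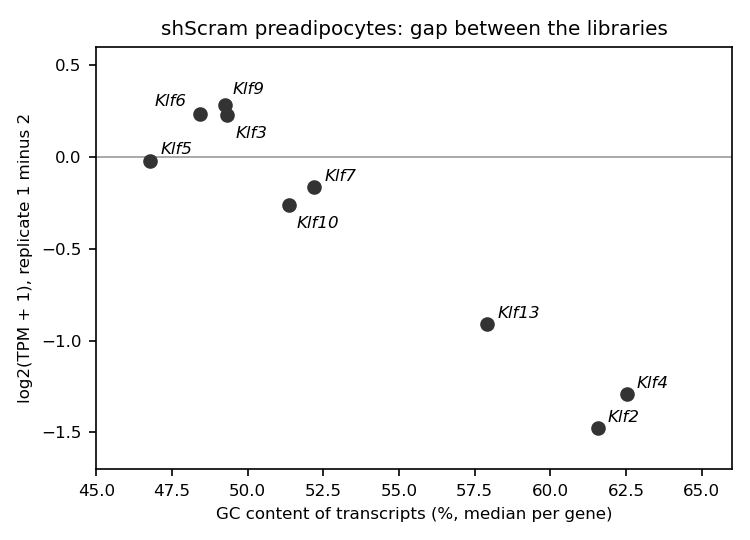
The plot of the library gap against GC content shows log2(TPM + 1) of shScram Pre replicate 1 minus replicate 2 (vertical axis) against the median GC content of each gene's transcripts in % (horizontal axis), 1 point per member; Klf15, listed at 0 in both, is not drawn. Klf2, Klf4 and Klf13, at the right, lie 0.91 to 1.48 below 0, and the other members lie within 0.29 of it.

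Among preadipocytes, 5 of the 10 members were called between shFTO and shScram, all higher in shFTO: Klf2, Klf4, Klf7, Klf10 and Klf15. Over all tested genes, 28.2% were called and 15.9% were called higher. The members' median log2 fold change was 0.62, against 0.08 for all genes. The members split as 4 higher and 1 lower with quantile normalization, 5 and 1 with median-ratio scaling, and 3 and 1 after the GC adjustment. Of all called genes, 47.2%, 53.1% and 50.6% were higher in these fits, against 56.4% in the main fit. The Klf4 and Klf15 calls were lost in 13 and 12 of 19 alternative fits, and Klf15 lay under 1 TPM in every Pre library. At MCE, Klf2 and Klf7 were higher and Klf5 and Klf6 lower, so 4 of 10 members were called, against 17.8% of all genes (10.5% higher, 7.26% lower). The members' median there was -0.16, beside 0.05. At Diff, Klf2, Klf7 and Klf9 were higher and Klf5 was lower, again 4 of 10, against 21.2% of all genes (11.9% higher, 9.31% lower). The median was 0.35 for the members and 0.03 for all genes. Klf2 and Klf7 were thus the members called at all 3 stages. The shared estimate of the spread depends on the shScram Pre libraries, and the share of all genes called moved with the member counts. Without replicate 1 the 3 counts were 4, 6 and 8 members, beside 29.0%, 41.0% and 45.7% of all genes. Without replicate 2 they were 7, 6 and 8, beside 62.8%, 41.0% and 45.6%. Without shScram Diff replicate 1, the library with conflicting labels, they were 4, 2 and 3, beside 20.9%, 14.5% and 11.2%. Without shScram MCE replicate 1 or shFTO MCE replicate 1 or 2 a single member, Klf7, was called at MCE, beside 8.97%, 7.95% and 7.61% of all genes.

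**Figure D2:**
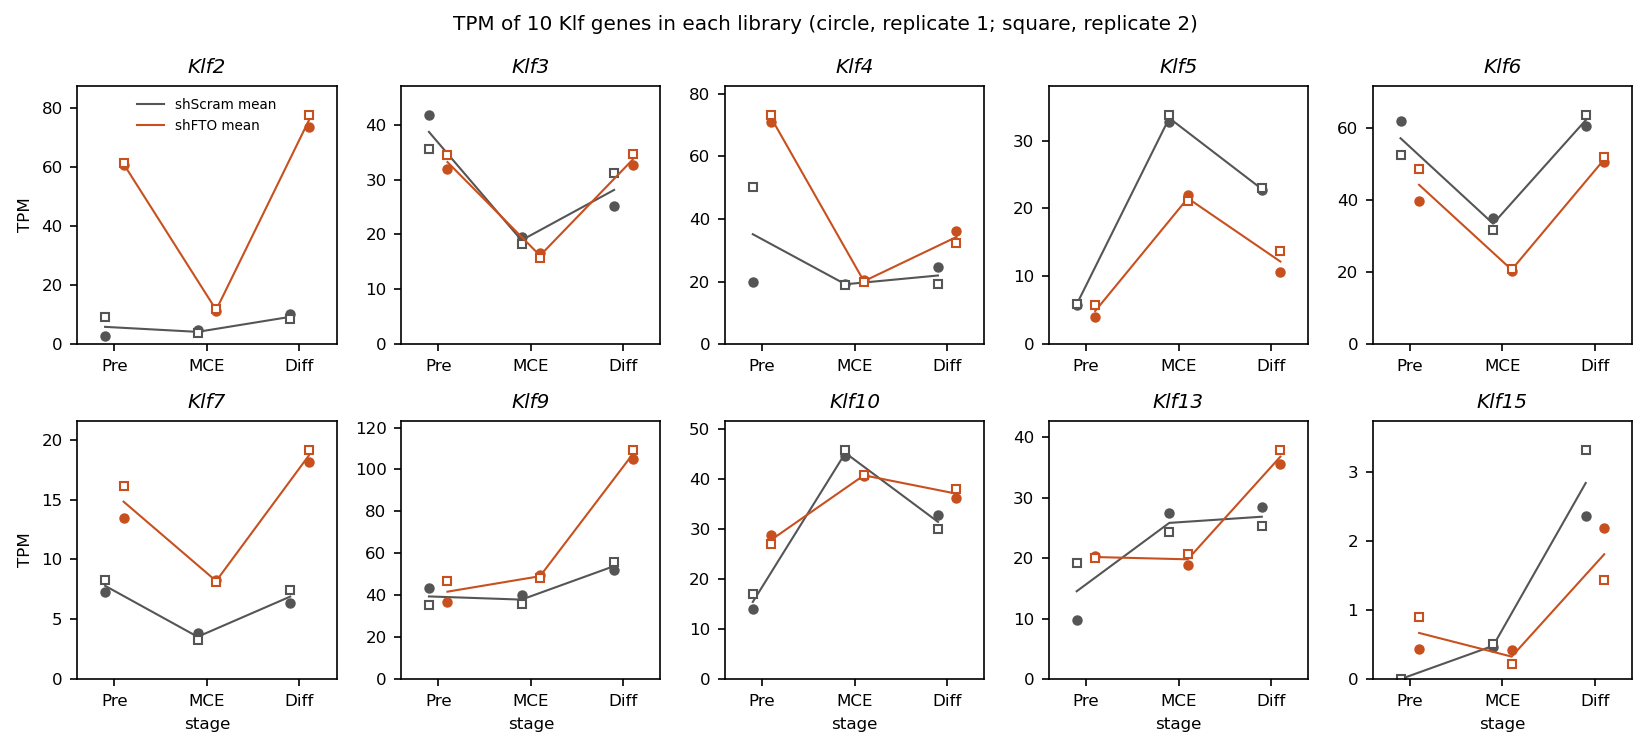
The plot of member levels shows TPM (vertical axis, linear, from 0) at each stage (horizontal axis) in 1 panel per gene, grey for shScram and orange for shFTO, with circles for replicate 1, squares for replicate 2 and lines through the group means. Klf2 and Klf7 lie higher in shFTO at all 3 stages, Klf9 separates at Diff (105.0 and 109.5 against 51.9 and 55.9 TPM), and Klf5 peaks at MCE in both lines with a lower peak in shFTO.

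**Figure D3:**
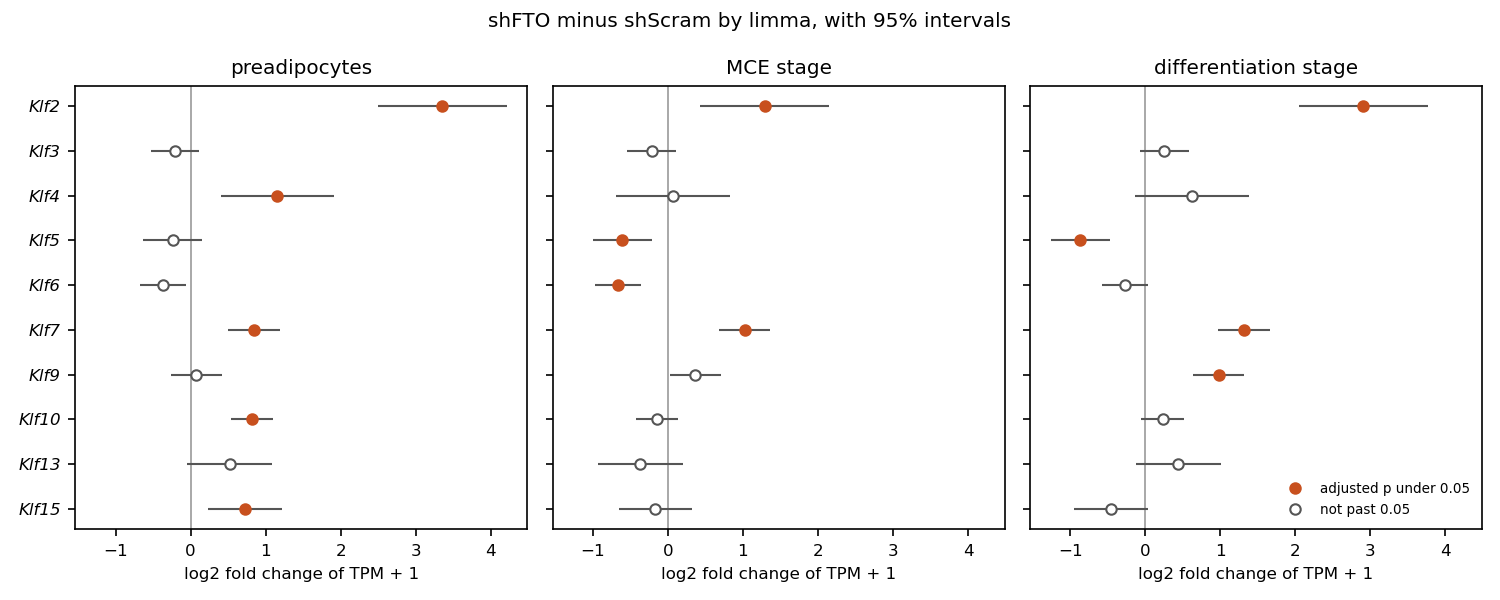
The plot of the knockdown contrast shows the limma log2 fold change of TPM + 1, shFTO minus shScram (horizontal axis), for each member (rows) at the 3 stages (panels). Lines are 95% intervals, filled points have an adjusted p under 0.05 and open points do not; Klf2 has the largest value at each stage (3.35, 1.29 and 2.90), and Klf15 in the first panel is measured against libraries listed at 0.

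Klf2 is known to repress Pparg and to hold preadipocytes in their undifferentiated state. The gene (ENSMUSG00000055148) lies on chromosome 8 of GRCm38 from 72319033 to 72321656 on the plus strand. Klf2 in shScram cells measured 2.64 and 9.15 TPM at Pre, 4.75 and 3.66 TPM at MCE, and 10.1 and 8.47 TPM at Diff. Klf2 in shFTO cells measured 61.0 and 61.4 TPM at Pre, 11.2 and 12.1 TPM at MCE, and 73.8 and 77.9 TPM at Diff. Every shFTO library was above every shScram library, and the shFTO libraries themselves split into a low pair at MCE and 2 high pairs on either side of it. The ratio of the mean TPM, shFTO over shScram, was 10.4 at Pre, 2.77 at MCE and 8.16 at Diff. On the log2 scale Klf2 was higher by 3.35 at Pre (SE 0.38, adjusted p = 0.000768), by 1.29 at MCE (adjusted p = 0.0472) and by 2.90 at Diff (adjusted p = 0.00088).

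The Diff difference of Klf2 was called in all 19 alternative fits, with values from 2.57 to 3.02. The Pre difference moved with the shScram Pre library that was kept, at 2.61 without replicate 1, 4.09 without replicate 2 and 2.38 after the GC adjustment, and it was called in each of these. It was not called when only the 4 Pre libraries entered the fit (adjusted p = 0.168), a fit in which limma called 0 of all tested genes, while 4 members and 17.5% of all genes had an unadjusted p under 0.05. The MCE difference was close to the threshold: its call was lost in 13 of the 19 fits, with values from 1.09 to 1.46.

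Within shFTO cells Klf2 fell by 2.30 on the log2 scale from Pre to MCE (SE 0.38, adjusted p = 0.00207) and rose by 2.60 from MCE to Diff (adjusted p = 0.00152). That is a mean 5.26 times higher at Pre and 6.52 times higher at Diff than at MCE. In shScram the libraries of Pre and MCE overlap, and the first step was -0.23 (adjusted p = 0.649). Its sign depended on the Pre library kept, at -0.97 without replicate 1 (adjusted p = 0.000483) and 0.51 without replicate 2 (adjusted p = 0.0136), and it was -0.72 after the GC adjustment (adjusted p = 0.00128). The second step in shScram was 0.99 (adjusted p = 0.089). It was called with only its own libraries (adjusted p = 0.0133), after the GC adjustment (0.82, adjusted p = 0.00101) and without either shScram Pre library (adjusted p = 0.00013 and 0.00014). The difference between the lines in the first step was -2.07 (SE 0.54, adjusted p = 0.0647), and in the second 1.62 (SE 0.54, adjusted p = 0.182). Neither was called. The first difference passed with quantile normalization (-2.05, adjusted p = 0.0388), with median-ratio scaling (-2.03, adjusted p = 0.0458), without shScram Pre replicate 1 (-1.33, adjusted p = 0.00157), without replicate 2 (-2.80, adjusted p = 2.56e-06) and after the GC adjustment (-1.29, adjusted p = 0.00183). The second, which uses no Pre library in its means, passed when only its own libraries were fitted (adjusted p = 0.0011), after the GC adjustment (1.49, adjusted p = 0.0016) and when either shScram Pre library was left out of the shared spread (adjusted p = 0.000329 and 0.000356).

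Since Klf proteins bind GC-box and CACCC-type DNA, the promoters of the members were searched for these letters, together with sites named for other factors. RefSeq promoter sequences (GRCm38.p6, 250 bases before to 50 after a gene's start) were matched by symbol for 8 of the 10 members. The RefSeq start is at base 72319062 for Klf2, 64121389 for Klf7 and 23141226 for Klf9, so for Klf2 and Klf7 it lies inside the gene as the annotation used for the other coordinates draws it. Positions count to the first base of the motif from this RefSeq start. The following stretches come from the promoters of Klf2 and Klf7, the members called at all 3 stages, and Klf9, called at Diff. Each is written 5′ to 3′ on the gene's own strand, with the motif in capitals.
Klf2 GC box, chr8:72318838-72318863, plus strand, position -214: ggacggtcggGGGCGGggcccggccg
Klf2 CACCC box read on the opposite strand, chr8:72319033-72319057, plus strand, position -19: tataaggcctGGGTGggccgggcca
Klf7 GC box, chr1:64121591-64121616, minus strand, position -217: gcgcaaaacgGGGCGGagggagggag
Klf7 CACCC box read on the opposite strand, chr1:64121513-64121537, minus strand, position -138: agcgaggatgGGGTGgggggtgggg
Klf9 CACCC box, chr19:23141132-23141156, plus strand, position -84: agagttgaatCACCCtccccactgg
Klf9 core of the cAMP response element, chr19:23141170-23141194, plus strand, position -46: gcctggattgTGACGtgatgggatt
The GC box (GGGCGG, either strand) was in 7 of the 8 member promoters and in 35.7% of 32851 promoters. The CACCC box (CACCC) was in 6 of 8, against 57.5%, and the core of the cAMP response element (TGACG) in 6 of 8, against 20.8%. A CCAAT box (CCAAT) was in 4 of 8, against 37.4%. A TATA box (TATAAA) was in 13.6% of all promoters and in 0 of the 8. Both strands were read for every motif, matches of different motifs were allowed to overlap, and a match describes letters in this window only. The 32851 promoters were not limited to tested genes or matched to the members for GC content. Whether the member counts differ from those of promoters alike in GC content was not tested.

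Klf7, known as a repressor of preadipocyte differentiation when overexpressed, was the other member called at all 3 stages. It lies on chromosome 1 from 64029447 to 64122282 on the minus strand. Klf7 in shScram cells measured 7.30 and 8.29 TPM at Pre, 3.82 and 3.25 TPM at MCE, and 6.33 and 7.46 TPM at Diff. Klf7 in shFTO cells measured 13.5 and 16.2 TPM at Pre, 8.24 and 8.15 TPM at MCE, and 18.2 and 19.2 TPM at Diff. The shFTO values were above the shScram values at each stage, but the lowest shFTO pair, at MCE, overlapped the range of shScram Pre. Klf7 was higher in shFTO by 0.84 at Pre (SE 0.15, adjusted p = 0.00613), by 1.02 at MCE (adjusted p = 0.00212) and by 1.32 at Diff (adjusted p = 0.000433). The MCE and Diff differences were called in all 19 alternative fits, and the Pre difference in all but the one restricted to the Pre libraries.

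Klf7 dipped at MCE in both lines. It fell by 0.96 in shScram (adjusted p = 0.00155) and by 0.78 in shFTO (adjusted p = 0.0049) from Pre, and then rose by 0.80 (adjusted p = 0.00608) and by 1.10 (adjusted p = 0.00119). The shScram rise was not called with quantile normalization (0.45) or without shScram Diff replicate 2 (0.69) or shScram MCE replicate 2 (0.71). The difference between the lines in these steps was 0.18 (95% interval -0.31 to 0.66) and 0.30 (-0.19 to 0.79). The annotation places Gm26649 on the opposite strand, sharing 3196 exon bases with Klf7 and not analysed here. Whether strand was used in counting is not stated, so reads of the pair cannot be told apart.

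Klf3 recruits the corepressor CtBP and is known to restrain adipogenesis. Its locus is on chromosome 5 from 64803388 to 64832901 on the plus strand. Klf3 in shScram cells measured 41.8 and 35.5 TPM at Pre, 19.6 and 18.3 TPM at MCE, and 25.1 and 31.1 TPM at Diff. Klf3 in shFTO cells measured 31.9 and 34.4 TPM at Pre, 16.7 and 15.6 TPM at MCE, and 32.6 and 34.7 TPM at Diff. The lines lay close together at each stage, and both had their lowest values at MCE. No knockdown difference passed, at -0.21 for Pre (95% interval -0.53 to 0.11), -0.22 for MCE (-0.54 to 0.10) and 0.26 for Diff (-0.06 to 0.58). Klf3 fell from Pre to MCE by 0.99 in shScram (SE 0.14, adjusted p = 0.000876) and by 0.99 in shFTO (adjusted p = 0.000935). From MCE to Diff it rose by 0.54 in shScram (adjusted p = 0.0239) and by 1.01 in shFTO (adjusted p = 0.00124). The shScram rise was not called in 6 of 19 fits: with quantile normalization (0.34), median-ratio scaling (0.28) or the GC adjustment (0.31), and without shScram Diff replicate 2 (0.39), shScram MCE replicate 1 (0.58) or shScram MCE replicate 2 (0.49). The difference between the lines in that step was 0.47 (adjusted p = 0.302). Gm20033, at 1.26 to 21.8 TPM, shares 404 exon bases with Klf3 on the opposite strand.

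Among the early activators, Klf5 rose at MCE in both lines. Klf5 is known to be induced by C/EBP-beta and C/EBP-delta and to activate Pparg together with them. The gene maps to chromosome 14 from 99298691 to 99315036 on the plus strand. Klf5 in shScram cells measured 5.83 and 5.92 TPM at Pre, 32.8 and 33.8 TPM at MCE, and 22.7 and 23.0 TPM at Diff. Klf5 in shFTO cells measured 3.99 and 5.80 TPM at Pre, 21.9 and 21.1 TPM at MCE, and 10.6 and 13.8 TPM at Diff. No groups overlapped, MCE was the highest stage in both lines, and each shFTO pair lay under its shScram pair.

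Klf5 rose from Pre to MCE by 2.32 in shScram (SE 0.17, adjusted p = 2.37e-05) and by 1.95 in shFTO (adjusted p = 7.06e-05), a mean 5.67 and 4.39 times higher. Both calls held in all 19 alternative fits. Klf5 then fell by 0.78 in shFTO from MCE to Diff (adjusted p = 0.011), and the shScram value was -0.52 (adjusted p = 0.057). The shScram value became called in 8 of 19 fits, with values from -0.79 to -0.50 over all fits: with quantile normalization, median-ratio scaling, the GC adjustment or only its own libraries, and without any 1 of the 4 Pre libraries. The shFTO fall was not called without shFTO Diff replicate 1 (-0.61), shFTO MCE replicate 1 (-0.75) or shFTO MCE replicate 2 (-0.81). Between the lines Klf5 was lower in shFTO by 0.61 at MCE (-0.61, adjusted p = 0.0427) and at Diff by 0.87 (-0.87, adjusted p = 0.00811). The Pre value was -0.24 (adjusted p = 0.309). The MCE call was lost in 8 of the 19 fits, with values from -0.69 to -0.58, and the Diff call in 3, without shScram Diff replicate 1 (-0.88, adjusted p = 0.0505) or replicate 2 (-0.86, adjusted p = 0.056) and without shFTO Diff replicate 1 (-0.69, adjusted p = 0.0733). The lines did not differ past the threshold in either step (-0.37, adjusted p = 0.377, and -0.26, adjusted p = 0.726).

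Klf4, better known as a pluripotency factor, binds the Cebpb promoter with Egr2 early in adipogenesis. It is annotated on chromosome 4 from 55527143 to 55532466 on the minus strand. Klf4 in shScram cells measured 19.95 and 50.3 TPM at Pre, 19.2 and 19.1 TPM at MCE, and 24.6 and 19.3 TPM at Diff. Klf4 in shFTO cells measured 71.0 and 73.3 TPM at Pre, 20.4 and 19.8 TPM at MCE, and 36.1 and 32.4 TPM at Diff. The shFTO preadipocytes were above every other group, and at MCE all 4 libraries lay between 19.1 and 20.4 TPM. Klf4 was higher in shFTO preadipocytes by 1.16 (SE 0.33, adjusted p = 0.034). That value was 0.51 without shScram Pre replicate 1 (adjusted p = 0.0167), 1.80 without replicate 2 (adjusted p = 1.28e-06) and 0.12 after the GC adjustment (adjusted p = 0.364), and its call was lost in 13 of 19 fits.

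The knockdown values of Klf4 were 0.07 at MCE (95% interval -0.69 to 0.83) and 0.63 at Diff (-0.13 to 1.38, adjusted p = 0.228). The Diff value passed with only the Diff libraries (adjusted p = 0.0100) and when either shScram Pre library was left out of the shared spread (adjusted p = 0.000999 and 0.00105). Within shFTO cells Klf4 fell by 1.79 from Pre to MCE (adjusted p = 0.0039), called in all 19 fits, and the shScram value was -0.70 (adjusted p = 0.124). In shScram it was -1.35 without shScram Pre replicate 1 (adjusted p = 2.37e-05), -0.056 without replicate 2 (adjusted p = 0.734) and -1.23 after the GC adjustment (adjusted p = 1.27e-05). The difference of that step between the lines was -1.09 (adjusted p = 0.217), or -0.44 without shScram Pre replicate 1 (adjusted p = 0.118) and -1.74 without replicate 2 (adjusted p = 2.15e-05).

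Klf6 is an inducible factor known to repress Dlk1, a marker of preadipocytes. Its locus is on chromosome 13 from 5861482 to 5870394 on the plus strand. Klf6 in shScram cells measured 61.9 and 52.5 TPM at Pre, 35.2 and 31.8 TPM at MCE, and 60.7 and 63.7 TPM at Diff. Klf6 in shFTO cells measured 39.8 and 48.7 TPM at Pre, 20.4 and 20.9 TPM at MCE, and 50.6 and 52.0 TPM at Diff. MCE was the low stage in both lines, and each shFTO pair lay below the shScram pair of the same stage. The difference passed at MCE (-0.67, SE 0.14, adjusted p = 0.00992) and not at Pre (-0.36, adjusted p = 0.0726) or Diff (-0.27, adjusted p = 0.199). The Pre value became called with quantile normalization (-0.51), median-ratio scaling (-0.44), the GC adjustment (-0.31) or without shScram Pre replicate 2 (-0.48), and the Diff value with only the Diff libraries or without either shScram Pre library. Without shFTO MCE replicate 1, shFTO MCE replicate 2 or shScram MCE replicate 1 the MCE call was lost, with values from -0.76 to -0.60 over all fits. Klf6 fell by 0.75 in shScram (adjusted p = 0.00304) and by 1.05 in shFTO (adjusted p = 0.000541) from Pre to MCE. It then rose by 0.88 (adjusted p = 0.00238) and by 1.27 (adjusted p = 0.00035).

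Of the factors that act later, Klf9 is glucocorticoid-inducible and is known to activate Pparg in the middle of adipogenesis. The gene maps to chromosome 19 from 23141226 to 23168134 on the plus strand. Klf9 in shScram cells measured 43.4 and 35.4 TPM at Pre, 40.0 and 35.8 TPM at MCE, and 51.9 and 55.9 TPM at Diff. Klf9 in shFTO cells measured 36.7 and 46.7 TPM at Pre, 49.9 and 48.3 TPM at MCE, and 105.0 and 109.5 TPM at Diff. The lines overlapped at Pre, lay apart at MCE, and were furthest apart at Diff, where the shFTO mean was 1.99 times the shScram mean. Klf9 was higher in shFTO at Diff by 0.98 (SE 0.15, adjusted p = 0.00201), called in all 19 fits. The values were 0.08 at Pre (95% interval -0.26 to 0.42) and 0.37 at MCE (adjusted p = 0.136), the latter called with only the MCE libraries (adjusted p = 0.0268) or without either shScram Pre library (adjusted p = 0.0207 and 0.0206).

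Klf9 rose from MCE to Diff by 1.11 in shFTO (adjusted p = 0.00106), called in all 19 fits. In shScram it rose by 0.50 (adjusted p = 0.0403), and that call was lost in 13 fits, with values from 0.23 to 0.58 over all fits. The difference between the lines in this step was 0.61 (SE 0.21, adjusted p = 0.201). It passed when only the libraries of both stages were fitted or when either shScram Pre library was left out.

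Klf13, reported to activate Pparg in preadipocytes, lies on chromosome 7 from 63886351 to 63938915 on the minus strand. Klf13 in shScram cells measured 9.78 and 19.3 TPM at Pre, 27.4 and 24.3 TPM at MCE, and 28.4 and 25.3 TPM at Diff. Klf13 in shFTO cells measured 20.3 and 20.1 TPM at Pre, 18.96 and 20.7 TPM at MCE, and 35.6 and 38.0 TPM at Diff. In shScram cells the low pair was Pre, and in shFTO cells the high pair was Diff. Klf13 rose by 0.86 from Pre to MCE in shScram (SE 0.25, adjusted p = 0.0243), at 0.40 without shScram Pre replicate 1 (adjusted p = 0.0184) and 1.31 without replicate 2 (adjusted p = 5.7e-06). It was not called in 4 of 19 fits, those with no filter on low values, with only the libraries of the step, and without shScram MCE replicate 1 (0.77) or replicate 2 (0.94). The shFTO value of that step was -0.03 (95% interval -0.59 to 0.54). Klf13 then rose by 0.86 in shFTO from MCE to Diff (adjusted p = 0.0321), a call lost in 11 of 19 fits, and the shScram value was 0.05 (adjusted p = 0.903). The knockdown values were 0.52 for Pre (adjusted p = 0.137), -0.37 for MCE (adjusted p = 0.383) and 0.44 for Diff (adjusted p = 0.252). At Pre it was 0.06 without shScram Pre replicate 1, 0.98 and called without replicate 2 (adjusted p = 4.9e-05) and -0.20 after the GC adjustment (adjusted p = 0.135). The MCE value was called with only the MCE libraries, after the GC adjustment (-0.50) and without either shScram Pre library, and the Diff value with only the Diff libraries and without either shScram Pre library.

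Klf15 is known as a late activator that raises Pparg and the glucose transporter gene Slc2a4. It is annotated on chromosome 6 from 90462576 to 90475238 on the plus strand. Klf15 in shScram cells was listed at 0 in both Pre libraries and measured 0.462 and 0.501 TPM at MCE and 2.35 and 3.32 TPM at Diff. Klf15 in shFTO cells measured 0.436 and 0.899 TPM at Pre, 0.427 and 0.224 TPM at MCE, and 2.18 and 1.43 TPM at Diff. It was the lowest of the members in every library, and 1 TPM was passed only at Diff. From MCE to Diff it rose by 1.36 in shScram (SE 0.22, adjusted p = 0.00263) and by 1.07 in shFTO (adjusted p = 0.00694) on the log2(TPM + 1) scale, which understates changes at such levels. The means were 5.89 and 5.55 times higher. Klf15 entered the test only through its Diff libraries, so the filter favoured a rise into this stage. The shFTO rise was not called with quantile normalization (0.54) or without shFTO Diff replicate 1 (0.88) or shFTO MCE replicate 2 (0.96). The line difference at Diff was -0.45 (95% interval -0.94 to 0.04). At Pre, shFTO passed the test against libraries listed at 0 (adjusted p = 0.038), a call lost in 12 of 19 fits and for which no fold is given.

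Klf10, a repressor-type factor first known as a TGF-beta-inducible early gene, stood outside these roles. It lies on chromosome 15 from 38291463 to 38300706 on the minus strand. Klf10 in shScram cells measured 13.95 and 16.9 TPM at Pre, 44.6 and 45.9 TPM at MCE, and 32.9 and 30.1 TPM at Diff. Klf10 in shFTO cells measured 28.8 and 27.0 TPM at Pre, 40.7 and 40.8 TPM at MCE, and 36.1 and 38.1 TPM at Diff. No groups overlapped, and MCE was the high stage in both lines, but shFTO cells started from a higher level. Klf10 was higher in shFTO preadipocytes by 0.82 (SE 0.12, adjusted p = 0.00296), at 0.69 without shScram Pre replicate 1 and 0.66 after the GC adjustment. The values at MCE (-0.15, adjusted p = 0.494) and Diff (0.23, adjusted p = 0.229) did not pass, and the latter was called without either shScram Pre library (adjusted p = 0.0342 in both fits).

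Klf10 rose from Pre to MCE by 1.50 in shScram (adjusted p = 4.14e-05) and by 0.53 in shFTO (adjusted p = 0.0116). The difference between these steps was -0.96 (SE 0.18, adjusted p = 0.018), and Klf10 was the 1 member of 10 called in this comparison, against 5.11% of all genes (2.52% higher, 2.59% lower). That difference was lost as a call in 7 of 19 fits, including those without any 1 of the shFTO Pre, shFTO MCE or shScram MCE libraries, with values from -1.10 to -0.83 over all fits. The shFTO rise was not called without shFTO MCE replicate 1 (0.53) or replicate 2 (0.53) or without shFTO Pre replicate 2 (0.49). Klf10 fell from MCE to Diff by 0.51 in shScram (adjusted p = 0.0173), a call lost without any 1 of the 4 shScram libraries of these stages (-0.57 to -0.45), and the shFTO value was -0.13 (adjusted p = 0.481). For the MCE-to-Diff step, limma called 0 of the 10 members between the lines and 2.49% of all genes (1.47% higher, 1.01% lower), or 5 members and 17.1% of all genes without either shScram Pre library. At an unadjusted p under 0.05 there were 4 members (Klf2, Klf3, Klf9 and Klf13, at 0.47 to 1.62) and 15.3% of all genes.

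From Pre to MCE, 6 of 10 members were called in shScram, with Klf5, Klf10 and Klf13 higher and Klf3, Klf6 and Klf7 lower, against 39.1% of all genes (12.2% higher, 26.9% lower). In shFTO 7 were called, with Klf5 and Klf10 higher and Klf2, Klf3, Klf4, Klf6 and Klf7 lower, against 28.7% of all genes (8.80% higher, 19.9% lower). The members' medians were -0.14 and -0.55, beside -0.17 and -0.18 for all genes. From MCE to Diff, 5 members rose in shScram (Klf3, Klf6, Klf7, Klf9 and Klf15) and Klf10 fell, against 25.2% of all genes called (20.0% higher, 5.22% lower). In shFTO 7 rose (Klf2, Klf3, Klf6, Klf7, Klf9, Klf13 and Klf15) and Klf5 fell, against 26.7% (20.2% higher, 6.48% lower). Klf15 counts in both lines, but it passed the filter only through its Diff libraries, which favours a rise into Diff. The medians were 0.52 and 1.04, beside 0.23 and 0.17. For this step in shScram the count was 8 without either shScram Pre library, beside 52.0% of all genes, and 4 without shScram Diff replicate 1, beside 13.8%. It was 3 without shScram MCE replicate 1 (15.1% of all genes), 2 without shScram MCE replicate 2 (10.1%) and 2 without shScram Diff replicate 2 (10.9%). In shFTO it was 5 without shFTO Diff replicate 1 (14.3%) or shFTO MCE replicate 2 (12.6%). With only the Pre and MCE libraries of shScram in the fit, Klf5 alone was called in their step, beside 3.16% of all genes. Scaling the libraries by median ratios moved the median of all genes to between -0.0030 and 0.010 in the 4 steps, and the share of higher among called genes from 31.1% to 53.1% (shScram) and from 30.6% to 50.2% (shFTO) for Pre to MCE and from 79.3% to 51.4% and from 75.7% to 54.8% for MCE to Diff. Under it the members split as 4 higher and 3 lower in shScram and 2 and 5 in shFTO for Pre to MCE, and as 3 and 2 in shScram and 7 and 1 in shFTO for MCE to Diff. The 2 lines share no library in these stage comparisons, while successive steps within a line share their MCE libraries.

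The make-up of the family's RNA differed between the lines. The summed TPM of the 10 members was 206.6 to 267.7 in the 6 shScram libraries. In shFTO it was 307.5 and 334.5 at Pre, 208.9 and 207.7 at MCE, and 400.8 and 416.9 at Diff. The shFTO sums were thus above all shScram sums at Pre and Diff and at the low end of them at MCE. Klf2 made up 1.28% to 3.92% of the sum in shScram libraries, 5.34% and 5.83% in shFTO MCE, and 18.4% to 19.8% in shFTO Pre and Diff. Klf9 was 26.2% and 26.3% of the sum in shFTO Diff and 15.2% to 21.02% in shScram. Klf5 was 8.55% and 8.60% of the sum in shScram Diff and 2.65% and 3.30% in shFTO Diff.

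**Figure D4:**
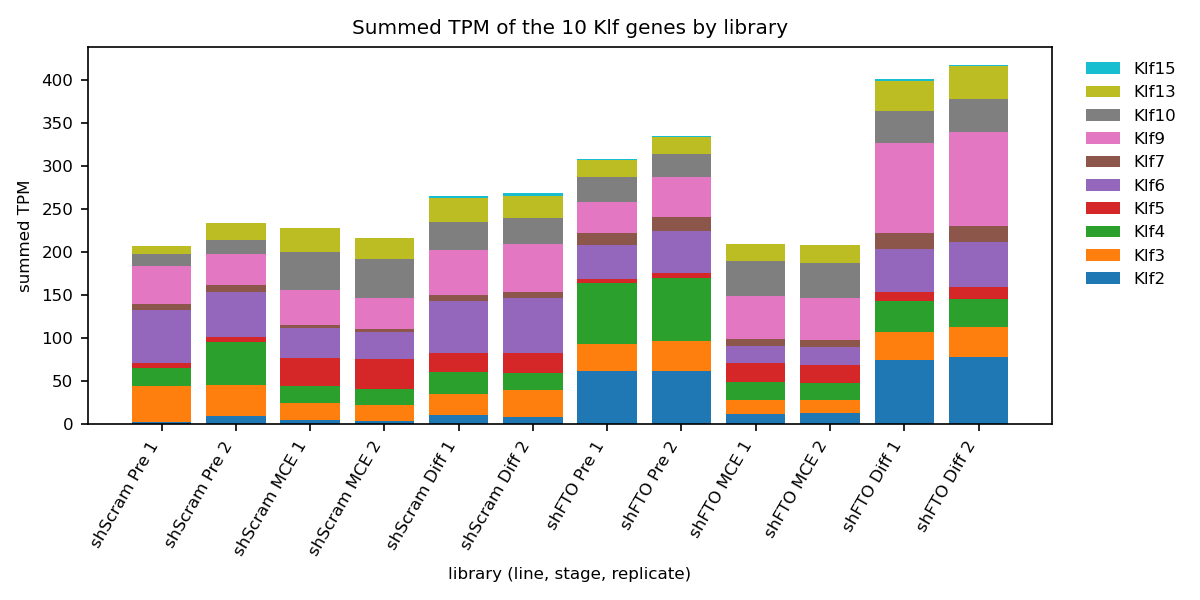
The plot of summed levels stacks the TPM of the 10 members (vertical axis, linear, from 0) for each of the 12 libraries (horizontal axis), 1 colour per gene. The sums of shFTO Pre (307.5 and 334.5) and shFTO Diff (400.8 and 416.9) are above the shScram range of 206.6 to 267.7, and Klf2, the lowest block, is widest in these libraries.

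Members that varied together over the libraries are given as description only, since the 12 libraries share 6 group means. Klf2 and Klf7 had the highest Pearson r of log2(TPM + 1) among member pairs, 0.91, followed by Klf3 and Klf6 at 0.86. Klf4 and Klf5 had the lowest, -0.80. The group means spanned 3.89 on the log2 scale for Klf2, 2.56 for Klf5 and 2.12 for Klf7, the widest ranges of the 10. Among 10798 other tested genes with a mean of 5 TPM or more, the patterns most like Klf2 were those of Ptgfrn (r = 0.989), Ggcx (0.982) and Fam234b (0.978). For Klf5 they were Ecm1 (0.984), Sik1 (0.984) and Sik2 (0.982), and for Klf7 they were Sec16b (0.981), Fkbp9 (0.973) and Golga2 (0.973).

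The relatives of the members are given beside the shares of all genes called, 28.2% at Pre, 17.8% at MCE and 21.2% at Diff. Of the 7 other Klf genes in the table, 3 passed the filter, and limma called 0 between the lines at any stage (1, 0 and 0 at an unadjusted p under 0.05). Uncalled Klf16 nevertheless had shFTO libraries above shScram at each stage. Its means were 26.1 against 12.4 TPM at Pre, 18.7 against 10.3 at MCE and 13.4 against 10.5 at Diff. Klf12 libraries overlapped at every stage. Those of Klf11 overlapped at Pre and MCE, with a lower shFTO mean at Diff (6.29 against 7.51 TPM, libraries apart). Klf11 rose from MCE to Diff by 1.12 in shScram (adjusted p = 0.00683) and by 1.10 in shFTO (adjusted p = 0.00652). Of the 9 Sp genes, relatives that bind the same GC boxes, 4 were tested. Sp1 was lower in shFTO preadipocytes (-0.43, adjusted p = 0.0474), fell by 0.53 from Pre to MCE in shScram (adjusted p = 0.0155), and Sp4 rose by 0.85 in the same step of shFTO (adjusted p = 0.0203). Of 10 cofactors and ubiquitin ligases of Klf proteins, 2 were higher in shFTO at MCE, the corepressor Ctbp2 (0.44, adjusted p = 0.0284) and the deacetylase Hdac1 (0.47, adjusted p = 0.0478). At Diff 1 was lower, Fbxw7, a ubiquitin ligase subunit that targets Klf2 and Klf5 (-0.76, adjusted p = 0.0167). With 3, 4 and 10 genes tested, these counts are no result about the lists.

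Of the 8 genes tied to Klf factors in adipogenesis, 7 were tested. At Pre, Cebpb (2.06, adjusted p = 0.034), Cebpd (1.77, adjusted p = 0.0109) and Egr2 (1.14, adjusted p = 0.00302) were higher in shFTO. Cebpb and Cebpd have the same library gap as Klf2 and Klf4, at 35.9 and 199.6 TPM for Cebpb in shScram Pre and 5.97 and 18.5 TPM for Cebpd. At MCE, Egr2 was higher (1.32, adjusted p = 0.00111), while Dlk1 (-1.32, adjusted p = 0.00357) and Pparg (-1.18, adjusted p = 0.000669) were lower. At Diff, Egr2 was higher (1.35, adjusted p = 0.00081) and Pparg lower (-1.25, adjusted p = 0.000386). Pparg, the central regulator of fat cell formation that Klf2 represses and Klf5 activates, measured 40.3 and 44.6 TPM in shScram Diff and 17.7 and 16.9 TPM in shFTO Diff. Egr2, the partner of Klf4, was at 0.839 to 1.41 TPM in shScram libraries and between 3.05 and 5.03 TPM in shFTO libraries.

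Because Klf9 and Klf15 respond to dexamethasone, a component of the induction mix, 6 other glucocorticoid targets were read beside them. From Pre to MCE in shScram, 5 rose and 1 fell, led by Fkbp5 (3.80), Zbtb16 (2.62) and Tsc22d3 (2.53). In shFTO 4 rose and 0 fell. Over all genes, 12.2% were called higher and 26.9% lower in this step of shScram, and 8.80% and 19.9% in shFTO. The Klf9 values of this step were -0.05 in shScram and 0.24 in shFTO, and neither was called. For Klf15 they were 0.57, from libraries listed at 0, and -0.32, and neither was called. Klf9 in shFTO passed only after the GC adjustment. Klf15 in shScram passed only with a pseudocount of 0.1, quantile normalization or median-ratio scaling. Between the lines at Pre, 2 of the 6 targets were higher in shFTO and 2 were lower. At MCE, Fkbp5 (-2.21), Tsc22d3 (-2.25) and Zbtb16 (-0.70) were lower in shFTO and Sgk1 (0.85) was higher. At Diff, Fkbp5 (-1.32) and Tsc22d3 (-0.97) were lower and Zbtb16 (0.79) was higher. The Klf9 value at Diff was 0.98 and that of Klf15 was -0.45, which did not pass. At MCE the Klf9 value was 0.37 and the Klf15 value -0.16, and neither passed. Of all genes, 28.2% were called between the lines at Pre, 17.8% at MCE and 21.2% at Diff.

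Since Klf2, Klf4, Klf6 and Klf10 are quickly inducible, 7 immediate early genes were read in the same way. At Pre, 6 of 7 were higher in shFTO, led by Junb (3.03, adjusted p = 0.015), Ier2 (2.42, adjusted p = 0.0121) and Jun (1.47, adjusted p = 0.0149). At MCE 2 were higher, Fos (1.60, adjusted p = 0.00487) and Egr1 (1.51, adjusted p = 0.0047). At Diff 4 were higher, with Junb (2.36, adjusted p = 0.0397), Fos (1.39, adjusted p = 0.00821) and Atf3 (1.10, adjusted p = 0.0108) in front. Levels of Fos and Atf3 were low. Fos means were 3.86 TPM in shFTO against 0.64 TPM in shScram at MCE, and 5.16 against 1.36 TPM at Diff. The Atf3 mean in shFTO Diff was 1.15 TPM, close to the 1 TPM of the filter. None was called lower at any stage. Over all genes, 15.9% were called higher at Pre, 10.5% at MCE and 11.9% at Diff. The list's medians were 1.31, 0.67 and 0.83, beside 0.08, 0.05 and 0.03 for all genes. Junb shows the shScram Pre gap, at 7.79 and 61.8 TPM. Among the inducible members, Klf2 was called higher at each stage, and Klf4 and Klf10 were called higher at Pre alone. Klf6 had values of -0.36, -0.67 and -0.27 at Pre, MCE and Diff, and was called lower at MCE.

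Adipocyte markers moved with the same contrasts. At Diff, 7 of 8 were called lower in shFTO with a median of -3.11, against 9.31% of all genes called lower. Their summed TPM was 1539 to 1556 in shScram and 425.5 to 460.1 in shFTO. At MCE 5 were called lower and 1 higher (7.26% and 10.5% of all genes), and at Pre 2 were called higher (15.9%). The fibroblast markers, all 7 at 1 TPM or more in every group, summed to 2732 to 7005 TPM, with 4561 to 4792 in shScram Diff and 6191 to 6486 in shFTO Diff. Of these 7, limma called 2 higher in shFTO at Diff and 0 lower, against 11.9% and 9.31% of all genes. At MCE it called 2 higher and 0 lower (10.5% and 7.26% of all genes), and at Pre 2 higher and 1 lower (15.9% and 12.3%). Endothelial markers, of interest because Klf2 and Klf4 are high in endothelium, summed to at most 1.15 TPM in any library, and macrophage markers to at most 4.01 TPM. Of 4 muscle markers, Des alone reached 1 TPM, and the list summed to 3.28 to 13.3 TPM. The part of the share of fat cells in the Klf differences at Diff was not tested.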

How the data were processed

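Total RNA of 3T3-L1 lines was fragmented and sequenced by the authors. Their reads passed through Trim Galore 0.6.5 and HISAT2 2.1.0, with GRCm38 as the genome, and StringTie 2.1.4 quantified the genes of Ensembl release 102. The deposited values are TPM per gene and library, with no counts, so the authors' DESeq2 1.30.1 test on counts was not repeated and the depth behind a value is unknown. TPM sets each library to 1 total, so a large rise of some genes lowers all others. The table of 12 libraries was read through a map of its columns to sample titles, and no column of another sample was present.

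From these deposited TPM values, log2(TPM + 1) was computed and tested with limma 3.58.1 in R 4.3.3 for the 15968 genes that reached 1 TPM in 2 or more of the 12 libraries. The model had a mean for each of 6 groups (6 residual degrees of freedom), eBayes used a trend, tests were two-sided, and Benjamini-Hochberg adjustment covered all tested genes. The 9 contrasts were the knockdown at 3 stages, the stage steps in each line and 2 interactions. Steps in Python 3.11.15 used pandas 2.3.3 and numpy 2.4.6, and figures matplotlib 3.10.9. Coordinates, overlaps and GC content (median over a gene's transcripts, for 15928 tested genes) came from GENCODE release M21 on GRCm38.

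The members and lists were chosen with earlier results of these data known. Named genes are the 10 members in every comparison, at most 3 called genes per other list and comparison with the largest change, Fto, and for the 3 members of widest range the 3 genes of highest Pearson r. Klf11, Klf12 and Klf16 are also named between the lines, where they were not called. Beyond that rule, every called glucocorticoid target is named for the MCE knockdown, which adds Zbtb16. Alternatives were a pseudocount of 0.1, no filter, quantile normalization, median-ratio scaling, only the libraries of a comparison, the replicate number as a block and each library left out. A GC adjustment (loess, span 0.5, per library) was added after the data were seen. The main fit was run on simulated data for the knockdown at MCE only, with the same spread in every group for a gene. The alternative fits and the wider spread of shScram Pre were not simulated. Over 15 group pairs, the deviations of same-numbered libraries correlated at -0.29 to 0.17. The correlation was over 0.1 in 2 pairs, both within a line: shFTO Diff with shFTO MCE (0.17) and shScram MCE with shScram Pre (0.12).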

Additional observations from a re-analysis of the deposited data

Results flagged for a closer look

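Klf10 was the member for which the 2 lines differed past the adjusted threshold in how they moved from Pre to MCE (interaction -0.96 on the log2 scale, SE 0.18, limma adjusted p = 0.018, beside 5.11% of all genes called). It rose by 1.50 in shScram, from 13.95 and 16.9 to 44.6 and 45.9 TPM, and by 0.53 in shFTO, from 28.8 and 27.0 to 40.7 and 40.8 TPM. Put as a knockdown effect, this is 0.82 among preadipocytes and -0.15 at MCE. The interaction kept its sign in every fit, from -1.10 to -0.83, and was not called in 7 of 19.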

How the results depend on the processing

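Of 41 calls on members over the 9 contrasts, 18 held in all 19 alternative fits and 23 in all that kept every library; none reversed. Apart from counts and leave-one-out fits, 541 member values kept their direction and call, 36 became called, 34 were lost and 19 changed sign, the last all of values not called.

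For the knockdown at Pre, 5 members were called and 3 with no filter on low values, 0 with only the Pre libraries (0 of all genes, 4 members at an unadjusted p under 0.05), and 3 to 7 when 1 library was left out. At MCE, 4 became 2 with a pseudocount of 0.1, 2 with no filter, and 1 to 6 leaving out 1 library. At Diff, 4 became 7 with only the Diff libraries and 3 to 8 leaving out 1. From Pre to MCE in shScram, 6 became 1 with only those libraries and 5 to 8 leaving out 1, and in shFTO 7 became 6 to 7. From MCE to Diff, the 6 of shScram became 2 to 8 and the 8 of shFTO became 5 to 9. The Pre-to-MCE interaction count of 1 became 2 with a pseudocount of 0.1, quantile normalization, median-ratio scaling or the GC adjustment, 0 with only its own libraries, and 0 to 4 leaving out 1. The MCE-to-Diff interaction count of 0 became 6 with only its own libraries, 2 with the GC adjustment and 0 to 5 leaving out 1. The cause was not tested, except that fits with fewer libraries have fewer degrees of freedom and another estimate of the spread.

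The values that changed sign were not called in the report. The Klf9 knockdown value at Pre (0.08) was -0.076 with quantile normalization, -0.0018 with median-ratio scaling and -0.095 to 0.25 leaving out 1 library. The Klf13 value at Pre (0.52) was -0.20 with the GC adjustment. Klf4 at MCE (0.07) was -0.036 with quantile normalization and -0.15 with the GC adjustment. From Pre to MCE in shScram, Klf9 (-0.05) was 0.088, 0.17 and 0.16 with quantile, median-ratio and GC settings and -0.19 to 0.093 leaving out 1, and Klf2 (-0.23) ran from -0.97 to 0.51 leaving out 1, the last without shScram Pre replicate 2 and then called. From MCE to Diff in shScram, Klf4 (0.18) was -0.030 and -0.083 with quantile and median-ratio settings, and Klf13 (0.05) was -0.13, -0.21 and -0.13 with these and the GC adjustment and -0.031 to 0.14 leaving out 1. From Pre to MCE in shFTO, Klf13 (-0.03) was 0.17, 0.20 and 0.26 in that order and -0.087 to 0.032 leaving out 1, and Klf15 (-0.32) was 0.035 with quantile normalization. The Klf3 Pre-to-MCE interaction (-0.0063) was 0.041 and 0.0059 with quantile and median-ratio settings and -0.12 to 0.11 leaving out 1.

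Whether libraries with the same replicate number share more than the number is not known. With the number as a block, the counts were 4, 3 and 4 for the knockdown at Pre, MCE and Diff, 6 and 5 for the shScram steps, 7 and 8 for the shFTO steps, and 1 and 0 for the interactions, so 3 of 41 calls were lost and 0 gained.

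With 2 libraries per group and no counts, no interval for counting error can be given, and values near 0 such as those of Klf15 carry an unknown depth.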
